A study of Mus musculus with 4 samples.

Results

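The genes described here are the mouse mitochondrial carriers and uncoupling proteins. They were taken from the array's own annotation: every probe whose gene symbol starts with Slc25a, plus the probes for Ucp1, Ucp2, Ucp3, Mpc1 and Mpc2. This gave 113 probes for 52 genes, of 27278 named genes on the array. Of the 113 probes, 79 cleared the background test on both control arrays or both PGE2 arrays, and these covered 42 of the 52 genes. Of the 79, 74 passed on all 4 arrays, 4 passed through the PGE2 arrays alone and 1 through the control arrays alone. The other 10 genes (Ucp1, Slc25a2, Slc25a15, Slc25a18, Slc25a21, Slc25a31, Slc25a41, Slc25a48, Slc25a53 and Slc25a54) were not tested. Of their 18 probes, 14 were above background on no array and 4 on 1 array.

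The study compared aortic vascular smooth muscle cells (VSMCs) from EP4-Tg mice on the C57BL/6J background, grown out from explants. The receptor EP4 binds prostaglandin E2 (PGE2) and raises cyclic AMP, and Tg denotes a transgene. The control group was 2 untreated samples, the PGE2 group was 2 samples given PGE2, both at 24 h, and each sample was read on 1 single-colour Agilent array. Both groups carried the transgene, and cells without it were not analysed here. The dose of PGE2, the promoter of the transgene and the animals behind each culture are not given in the sources used here. The samples are described as biological replicates, with no animal named, so p-values measure the spread between these samples.

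Members of the SLC25 family sit in the inner mitochondrial membrane, a few of them in peroxisomes or the outer membrane, and exchange nucleotides, phosphate, organic acids, amino acids, coenzymes or metal ions across it. Uncoupling proteins belong to the same family. Ucp1 lets protons back into the matrix as heat production in brown fat, Ucp3 is best known from skeletal muscle, and Ucp2 is widespread, with high levels in immune cells. Mpc1 and Mpc2 are a separate small family that together form the carrier through which pyruvate enters mitochondria.

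A level below is the log2 of a probe's processed intensity minus the log2 of its array's 75th percentile, so 0 is the 75th percentile of that array. Levels of different probes cannot be set against each other. Each array had 47.9% to 53.8% of its spots above background and none saturated. Across the genes tested, each by its brightest kept probe, arrays correlated at r = 0.974 within the control group and 0.978 within the PGE2 group. Between groups r was 0.943 to 0.958. Of 9 smooth muscle markers, 8 were above background on at least 1 array, and Myocd, a coactivator of the contractile genes, on none. The summed linear level of these markers was 717 and 410 times the 75th percentile on the control arrays and 129 and 173 on the PGE2 arrays. That sum came mainly from Acta2 and Tagln, but the fall was not confined to them. All 5 smooth muscle markers tested had a negative log2 change (PGE2 minus control), with a median of -2.10. For 4 of the 5, both PGE2 arrays lay below both control arrays, as for 28.3% of all genes tested. Itga8 fell most, at -4.88 ± 0.32 with an adjusted p of 0.0438 in limma, and Smtn least, at -0.33 with overlapping groups. In bulk RNA, fewer cells of a type and less RNA per cell cannot be told apart.

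Of the carrier genes, 3 were called higher after PGE2 and none lower: Ucp2, Slc25a25 and Ucp3, the last through a single probe whose readings could not be separated from those of Ucp2. A gene was called at an adjusted p under 0.05 in the limma fit over all 17660 genes tested, each represented by its brightest kept probe. Among all genes tested, 0.396% were called higher and 0.272% lower, against 3 and 0 of the 42 carrier genes. At an unadjusted p under 0.05, 7 carrier genes stood higher and 0 lower, where 7.31% and 10.5% of all genes tested did. The median log2 change of the 42 was 0.08, beside -0.028 over all genes tested, and 31 of the 42 lay within 0.5 of 0. Both PGE2 arrays lay above both control arrays for 17 carrier genes, below for 9, and the groups overlapped for 16; over all genes tested 24.0% lay above and 28.3% below. The 26 that did not overlap are 61.9% of those tested, beside 52.2% of all genes tested.

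**Figure D1:**
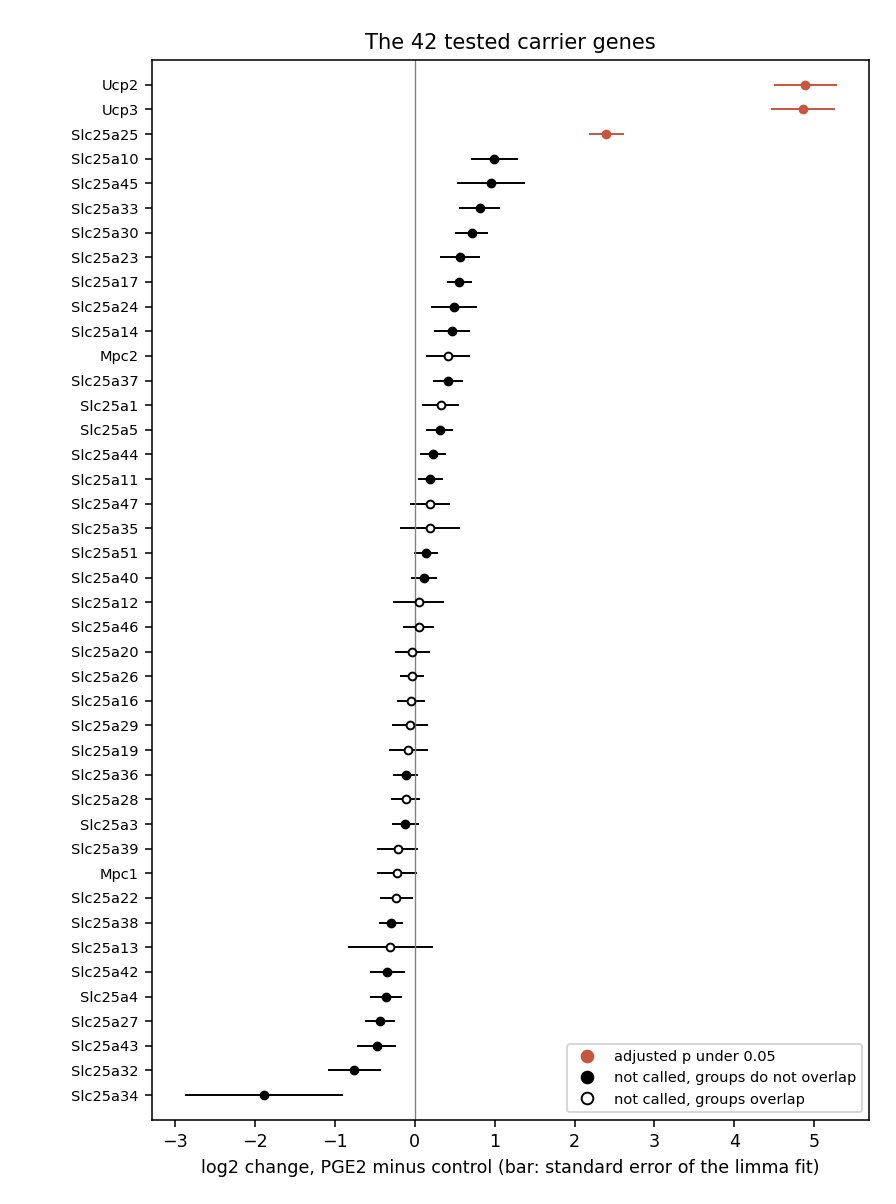
The plot gives the log2 change (PGE2 minus control) of the 42 tested carrier genes, sorted, with bars for the limma standard error over 2 arrays per group. Red points are the 3 genes called, filled points have groups that do not overlap, and open points have groups that overlap; apart from the 3 called, the genes lie between -1.89 and 1.00.

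Ucp2, an uncoupling protein gene, rose at both of its probes. The brighter of the Ucp2 probes (A_51_P297105) read -1.32 and -0.92 on the control arrays and 4.25 and 3.28 on the PGE2 arrays. As scanner intensities these were 204 and 316 against 11453 and 6047. The groups did not overlap, and the gap between them was far wider than the distance within either. The log2 change was 4.89 ± 0.39 (SE, n = 2 per group), a 29.6-fold rise, with an adjusted p of 0.0465 in limma. The second Ucp2 probe (A_52_P90265) gave intensities of 136 and 202 in controls and 7690 and 3633 after PGE2. Its change was 4.84 ± 0.43 (SE, n = 2 per group), with an adjusted p of 0.0489 in the limma fit with 1 row per probe, where 0.349% of 26100 probes were called higher and 0.238% lower.

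The single Ucp3 probe (A_66_P108247) read -1.30 and -0.83 in controls and 4.28 and 3.32 after PGE2. Its log2 change was 4.86 ± 0.40 (SE, n = 2 per group), with an adjusted p of 0.0465 in limma. Its intensities, 207 and 336 against 11674 and 6211, followed those of the brighter Ucp2 probe array by array. With each probe centred on its own mean, the Ucp3 probe and the brighter Ucp2 probe differed by at most 0.0425 log2 units on any array, and the 2 Ucp2 probes by at most 0.10. Whether the Ucp3 probe also detects Ucp2 RNA was not tested, since the probe sequences were not used here, so the Ucp3 value has no reading separate from Ucp2. Ucp1, the brown fat protein, was not above background on any array, and its probe gave no usable value in either group.

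**Figure D2:**
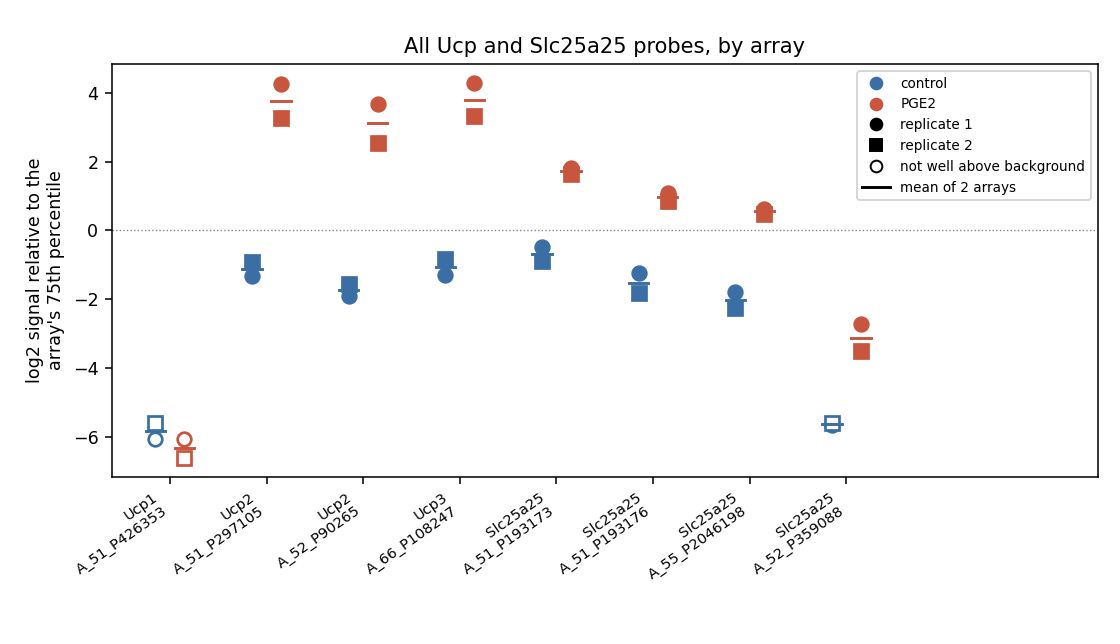
The plot gives the level of each Ucp1, Ucp2, Ucp3 and Slc25a25 probe on each of the 4 arrays (log2 of the processed intensity relative to the array's 75th percentile). Open symbols were not well above background. For the Ucp2 and Ucp3 probes, both PGE2 arrays sit above both control arrays; Ucp1 stays near -6 on every array and was not above background.

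Markers of cell types known for these genes were read on the same arrays, and their part in the Ucp2 result was not tested. Of 11 macrophage markers, 6 were above background on at least 1 array, while Adgre1, Fcgr1, Lyz2, Mrc1 and Tyrobp were above it on none. Of the 6, which were all tested, 3 lay higher after PGE2 without overlap and 3 lower, where 24.0% and 28.3% of all genes tested did. Higher were Cd68 at 2.09 ± 0.36, Csf1r at 0.98 and Cd14 at 0.62, and lower were Spi1, Itgam and Ptprc. A second Csf1r probe, above background on every array, went the other way. It read -1.26 and -0.97 in controls and -1.64 and -1.44 after PGE2. A second Cd14 probe lay higher, like the first. Spi1 passed the threshold in limma and counts among the 3 lower. It was kept through the control arrays alone and was not above background after PGE2. Neither its difference nor its call is therefore read as a result, and none of the others was called. The summed level of the macrophage markers was 78.2 and 64.4 in controls and 61.6 and 41.3 after PGE2, but that sum came mainly from Itgam and does not describe the list.

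Of 8 skeletal muscle markers, 4 were above background on at least 1 array, and Ckm, Myh1, Myod1 and Myog on none. Their summed level was 16.2 and 7.18 in controls and 2.04 and 3.097 after PGE2, mainly from Acta1 in the controls, which differed by -2.59 ± 0.55. The others tested went the other way, Tnnt3 at 2.14-fold without overlap and Myh4 at 1.27-fold with overlapping groups, and none of the 3 was called in limma. The Acta1 probe read 3.98 and 2.69 in controls and 0.33 and 1.17 after PGE2. A probe of the smooth muscle marker Acta2 (A_52_P210078) read 4.17 and 2.67 in controls and 0.27 and 1.28 after PGE2. Whether the Acta1 probe also detects Acta2 RNA was not tested. Of 8 adipocyte markers, 4 were above background on at least 1 array, and Adipoq, Cidec, Plin1 and Retn on none. The adipocyte sum was 0.633 and 1.85 in controls and 1.68 and 14.4 after PGE2. Its PGE2 values came mainly from Dio2, the deiodinase that activates thyroid hormone, which was not above background in controls. Dio2 was kept through the PGE2 arrays alone and was not called. It read 0.11 and 3.75 on them, so these differed widely, and its difference is not given. The others tested did not follow Dio2: Lep differed by -0.14 without overlap and Cidea by 0.040 with overlapping groups, and neither was called. Fabp4 was above background only on control replicate 2 and PGE2 replicate 2. Its brighter probe read -0.11 and -1.87 on these.

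Promoter sequences are printed for Ucp2, its neighbour Ucp3 and Slc25a25, the genes called, because EP4 raises cyclic AMP and the cyclic AMP response element has known letters, TGACGTCA. They are the 250 bases before an annotated start in RefSeq, build GRCm38.p6, written 5′ to 3′ in the direction of the gene. Capitals mark TGACGTCA, or else its core TGACG or the reverse complement CGTCA.
Ucp2, chr7:100493108-100493357, + strand: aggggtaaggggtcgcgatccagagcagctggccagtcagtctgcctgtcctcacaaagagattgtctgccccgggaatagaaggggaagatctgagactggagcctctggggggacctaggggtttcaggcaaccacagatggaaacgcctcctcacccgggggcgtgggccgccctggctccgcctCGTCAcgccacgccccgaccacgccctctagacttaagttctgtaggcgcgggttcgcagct
Ucp3, chr7:100472741-100472990, + strand: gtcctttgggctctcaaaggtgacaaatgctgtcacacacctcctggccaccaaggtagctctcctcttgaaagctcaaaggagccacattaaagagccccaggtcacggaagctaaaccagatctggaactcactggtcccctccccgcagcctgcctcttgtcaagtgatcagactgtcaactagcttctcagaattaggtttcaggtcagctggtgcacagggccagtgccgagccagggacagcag
Slc25a25, chr2:32424067-32424316, - strand: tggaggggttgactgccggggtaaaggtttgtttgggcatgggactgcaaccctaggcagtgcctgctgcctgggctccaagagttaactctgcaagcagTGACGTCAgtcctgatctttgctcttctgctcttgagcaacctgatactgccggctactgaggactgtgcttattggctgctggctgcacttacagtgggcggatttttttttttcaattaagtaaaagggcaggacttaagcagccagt
The Ucp2 window held 1 core, which begins 62 bases before the start, and the Ucp3 window held none. The Slc25a25 window printed holds TGACGTCA, beginning 150 bases before the start, and the windows of the 2 other annotated starts of Slc25a25 held neither form. Both strands were searched, and TGACGTCA contains the core on each strand. TGACGTCA occurred in 1.55% of 32851 RefSeq mouse windows of the same length and the core in 17.8%. Among the carrier genes, 41 of 52 had windows, 52 windows in all, and 2 of these held TGACGTCA (Slc25a25 and Slc25a36) and 13 the core. A match is a description of letters, and a window without one says nothing about the factor.

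The genes beside Ucp2 and Ucp3 on chromosome 7 gave no called change. Of 7 neighbours listed, 5 were tested, with 0 called in either direction, where 0.396% of all genes tested were called higher and 0.272% lower. Ppme1, which encodes a methylesterase of protein phosphatase PP2A, had the largest difference among them, reading 0.54 and 0.29 in controls and 3.27 and 2.06 after PGE2. Its groups did not overlap, with a log2 difference of 2.25 ± 0.45 (SE, n = 2 per group) and an adjusted p of 0.137 in limma. Dnajb13, which follows Ucp2 in the RefSeq gene order, was not above background, and the remaining tested neighbours lay between -0.17 and 0.77.

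Among the relatives of the uncoupling proteins that are best known from brain or kidney, none was called. Slc25a30 read -1.80 and -1.40 in controls and -0.87 and -0.91 after PGE2, a difference of 0.71 ± 0.21 with an adjusted p of 0.217 in limma, n = 2 per group. The groups did not overlap at that probe, but a second kept probe of Slc25a30 gave 0.060. Slc25a14 differed by 0.47 ± 0.23 and Slc25a27 by -0.44 ± 0.19, the latter with -0.10 at a second probe.

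Slc25a25, a calcium-regulated carrier that exchanges ATP-Mg for phosphate and so sets the adenine nucleotide pool of the matrix, also rose. It read -0.47 and -0.89 in controls and 1.81 and 1.64 after PGE2. The groups did not overlap and lay over 2 log2 units apart. The change was 2.40 ± 0.22 (SE, n = 2 per group), a 5.28-fold rise with an adjusted p of 0.0465 in limma. The 2 other probes of the gene that were above background on all arrays gave 2.50 and 2.57, close to the first. The remaining probe was not above background in controls and was kept through the PGE2 arrays, so its difference is not given. Of its relatives with the same substrate, Slc25a23 differed by 0.57 ± 0.25 and Slc25a24 by 0.49 ± 0.29, with adjusted p of 0.338 and 0.451 in limma, and neither was called. Other probes of Slc25a23 gave -0.25 and 0.12, and the difference between Slc25a25 and these relatives was not tested.

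None of the tested carriers of the main fuel and energy traffic was called. Mpc1 differed by -0.22 ± 0.25 and Mpc2 by 0.41 ± 0.28, the 2 subunits of the pyruvate carrier, and both had overlapping groups. A second Mpc1 probe gave -0.13 and a second Mpc2 probe -0.28. Slc25a4, the ADP/ATP carrier typical of heart and muscle, read 7.32 and 6.91 in controls and 6.74 and 6.76 after PGE2. Its groups did not overlap, at -0.36 ± 0.20 with an adjusted p of 0.431 in limma, and the sign turned under quantile normalization. Slc25a5, the widespread ADP/ATP carrier, differed by 0.31 ± 0.17, and the phosphate carrier Slc25a3 by -0.12 ± 0.17. Slc25a10, which exchanges malate or succinate for phosphate, read -2.33 and -2.06 in controls and -0.87 and -1.53 after PGE2. At 1.00 ± 0.29 it had the largest positive difference among the uncalled carriers, with an adjusted p of 0.220 in limma. The citrate carrier Slc25a1 and the oxoglutarate carrier Slc25a11 differed by 0.32 and 0.19.

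The amino acid carriers were mostly flat. The aspartate/glutamate carriers Slc25a12 and Slc25a13, part of the malate-aspartate shuttle, and the glutamate carrier Slc25a22 lay between -0.31 and 0.047, all with overlapping groups. Against -0.23 at its brightest probe, Slc25a22 gave 0.19 at another. For Slc25a12 the brightest gave 0.047 and the other kept probes -0.25 to -0.12. Of 26 carrier genes with more than 1 kept probe, 9 had probes that differed in sign. Slc25a45 stood out by size, at -0.10 and -0.62 in controls and 1.11 and 0.08 after PGE2. Its groups did not overlap, yet the 0.96 ± 0.42 difference had an adjusted p of 0.341 in limma. Slc25a38, which brings glycine in for haem synthesis, differed by -0.30 ± 0.15. The 4 others tested, among them the carnitine carrier Slc25a20, lay between -0.061 and 0.23.

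Among 9 carriers of coenzymes and nucleotides, 3 lay above and 3 below without overlap, where 24.0% and 28.3% of all genes tested did, and none was called. Slc25a17, a peroxisomal carrier of coenzyme A and related cofactors, read 3.16 and 3.09 in controls and 3.72 and 3.65 after PGE2. That tight spacing gave 0.56 ± 0.15 and, at 0.200 in limma, the lowest adjusted p of the 39 uncalled carriers. Slc25a33, a pyrimidine nucleotide carrier, differed by 0.81 ± 0.26, and the folate carrier Slc25a32 by -0.76 ± 0.33. Mitoferrin 1 (Slc25a37), which imports iron, differed by 0.41 ± 0.19, and the 3 others of its group lay between -0.21 and 0.11. Slc25a34, a carrier of unsettled substrate, had the lowest value at -1.89 ± 0.99, but it rests on 1 array. It read -3.25 and -0.44 in controls and -3.78 and -3.69 after PGE2. Without control replicate 2, whose reading stands apart, the difference was -0.48. A second Slc25a34 probe, not above background on control replicate 2, read -3.71 and -4.19 in controls and -3.77 and -4.18 after PGE2.

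None of 7 mitochondrial gene lists set beside the carriers held a called gene in either direction; with 0.396% of all genes tested called higher and 0.272% lower, few calls could fall in lists of 9 to 22 tested genes. The 13 genes for carrier import had a median of 0.19. They cover the TIM22 complex, the small Tim chaperones that guide carriers into the inner membrane, and Tomm20, Tomm22, Tomm40 and Tomm70a of the outer membrane. Of the 13, 7 lay above without overlap, none below, and 6 had overlapping groups. Those without overlap are 53.8% of the list, beside 52.2% of all genes tested, of which 24.0% lay above and 28.3% below. The nearest to the threshold in all lists were Srebf1, a lipid synthesis transcription factor, at 0.99 ± 0.15 with an adjusted p of 0.0950 in limma, and Sfxn5, a sideroflexin of the inner membrane, at 1.37 ± 0.21 with 0.0959. Pparg, a regulator of Ucp genes in fat, differed by -1.34 ± 0.31 with an adjusted p of 0.162 in limma. Ppargc1a and Ppargc1b, coactivators of mitochondrial biogenesis, were above background on no array. The 9 antioxidant enzymes had a median of -0.032 and held no gene at an unadjusted p under 0.05. Among the 21 genes of pyruvate, citrate and shuttle enzymes the median was 0.15, and Pdha1, a pyruvate dehydrogenase subunit, differed by 0.62 ± 0.17 with an adjusted p of 0.196 in limma.

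**Figure D3:**
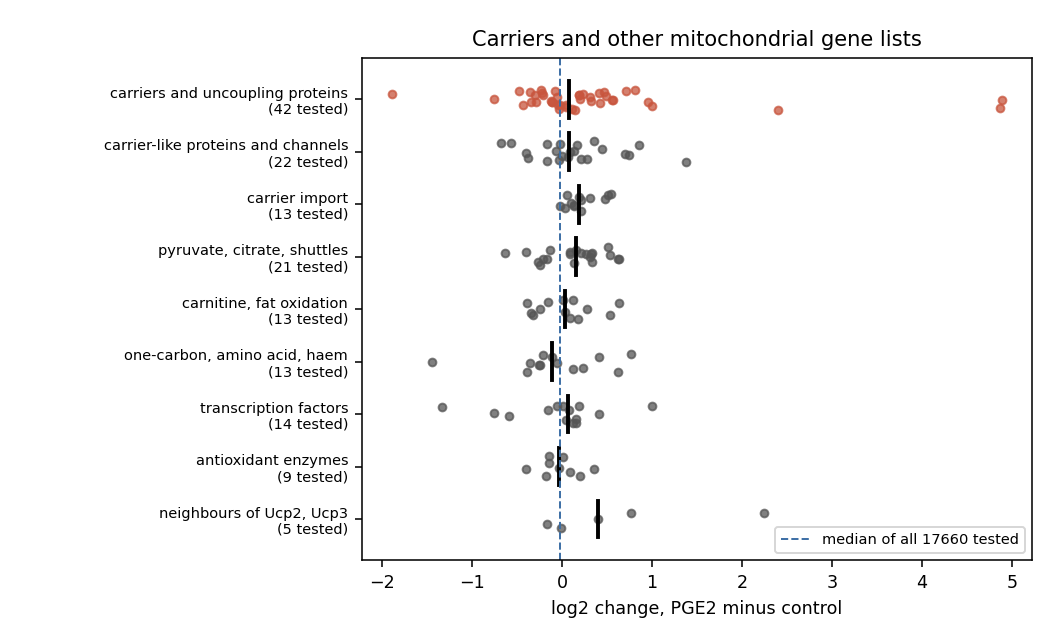
The plot gives the log2 change (PGE2 minus control) of each tested gene, with carriers in red and the 7 mitochondrial gene lists and the neighbours of Ucp2 and Ucp3 in grey. Black bars are medians and the dashed line is the median of all 17660 tested, -0.028; the genes called in limma are the 3 carriers farthest to the right in the top row, Ucp2, Ucp3 and Slc25a25.

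The calls of these 3 genes stood close to the threshold, while all 3 stayed higher after PGE2 under every setting. Over 19 other settings Ucp2 lay between 4.40 and 5.37 and Slc25a25 between 2.17 and 2.66. No carrier was called under quantile normalization, on the authors' scaled signal, without the filter on dim probes, or without control replicate 1 or control replicate 2. Ucp2 and Ucp3 were called, and Slc25a25 was not, without PGE2 replicate 1 or without PGE2 replicate 2; with the filter also recomputed on the 3 arrays left, none was called. With the replicate number as a block the reverse held: Slc25a25 was called with an adjusted p of 0.0474 in limma, Ucp2 was not with 0.0548. In the limma fit with 1 row per probe, however, the block left all 3 Ucp2 and Ucp3 probes called at an adjusted p of 0.0487, and leaving out PGE2 replicate 1 left none called at 0.0503. With 2 samples per group, the smallest 2-sided exact permutation p is 0.333.

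**Figure D4:**
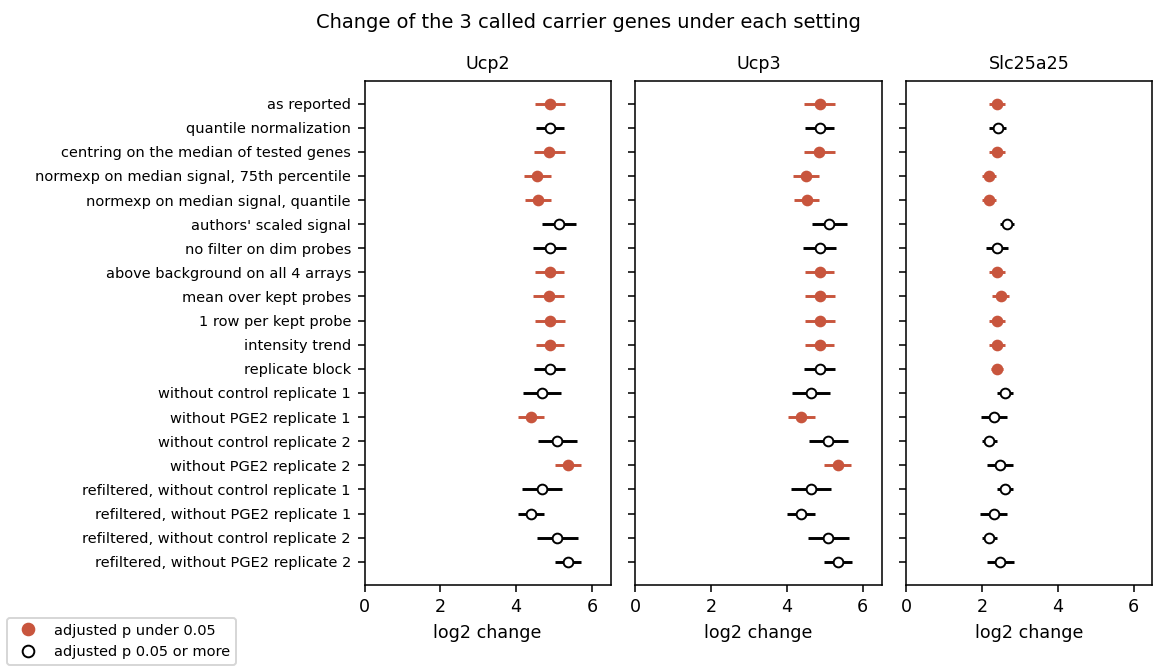
The plot gives the log2 change of Ucp2, Ucp3 and Slc25a25 under each setting, with bars for the limma standard error; red points have an adjusted p under 0.05 and open points do not, and refiltered means that the filter was recomputed on the 3 arrays left. Ucp2 stays between 4.40 and 5.37 and Slc25a25 between 2.17 and 2.66, and the colour varies between settings.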

How the data were processed

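The authors hybridised 4 samples to 1-colour Agilent mouse arrays (design 074809). Per the file headers, they extracted spot intensities with Agilent Feature Extraction 11.5.1.1 and protocol GE1_1105_Oct12, on mm9 annotation (version 12.0.3.1 in the submitters' processing notes). The processed signal is a linear intensity, background-subtracted per the file headers. The authors' deposited series table also holds a scaled signal, a linear intensity with no scaling method named there, and 4 detection code columns, which were not used.

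From the processed intensity, the log2 value minus each array's 75th percentile was computed in R 4.3.3. Outlier-flagged spots were left out, which removed 158 of 56605 probes. Probes well above background on both arrays of a group were kept, 26100 in all. Each gene was represented by its brightest kept probe, and 17660 genes or unnamed probes were tested with limma 3.58.1 (lmFit and eBayes, with 2 residual degrees of freedom per gene and a prior worth 2.15) at a Benjamini-Hochberg adjusted p of 0.05. The fit was run on data simulated under its own assumptions with independent errors, which checks the code and not the calls made here. Standard errors are those of this fit, and the number of arrays limits the precision. Symbols were updated through RefSeq; none of the carriers' changed.

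The members and lists were chosen with earlier results of these data known. The genes named are Ucp2, Ucp3, the pyruvate, ADP/ATP and phosphate carriers, called genes, the 8 highest and 8 lowest changes and the lowest p of each role; others given by value were chosen after their values were seen. Alternatives varied scaling, background correction, filter, probe choice, variance model, block and arrays.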

Additional observations from a re-analysis of the deposited data

How the results depend on the processing

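Of 23 named carriers, 18 kept their direction under all 19 alternatives. The count called higher was 3 as reported. It was 0 with quantile normalization, 0 on the authors' scaled signal, 0 with every probe kept whatever its brightness, and 0 to 2 with 1 array left out; the count called lower was 0 throughout. Over all genes, the authors' scaled signal and the unfiltered fit also called 0, with 4204 and 2685 at an unadjusted p under 0.05 in limma.

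With the replicate block, 1 carrier was called, Slc25a25, and over all genes 88 were higher and 84 lower, against 70 and 48. The deviations of the replicate numbers correlated at 0.424 between groups, but with only 2 pairs and no shared culture named, samples were not paired.

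Leaving out an array was first run with the filter and the probe choice recomputed on the 3 arrays left, which called 0 carriers and 0 genes every time. After those results were seen, the planned form was set to keep the filter and probes of all 4 arrays, so that 1 choice changed at a time. It called 0 carriers without control replicate 1 or control replicate 2, and 2 (Ucp2 and Ucp3) without PGE2 replicate 1 or PGE2 replicate 2. Both forms are counted here, and the calls depend on this choice.

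In the fit with 1 row per probe, the Ucp probes were not called with quantile normalization, on the authors' scaled signal or without the filter. With 1 array left out and the filter kept, they were called without PGE2 replicate 2 (adjusted p 0.0431 in limma) and not without any of the other 3; with the replicate block they were called at 0.0487. A_51_P297105 gave 4.89 with quantile normalization, 5.14 on the authors' scaled signal, 4.89 without the filter and 4.40 to 5.37 with 1 array left out. A_66_P108247 gave 4.86, 5.12, 4.86 and 4.38 to 5.34 in the same order. A_52_P90265 gave 4.88, 5.10, 4.84 and 4.27 to 5.41, and lost its call also with centring on the median, at 4.84. The median change of the carriers moved to 0.34 on the authors' scaled signal, where the median of all genes tested was 0.23, and lay between -0.057 and 0.18 with 1 array left out.

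Signs that turned were those of Mpc1 (0.036 on the authors' scaled signal, -0.50 to 0.058 with 1 array left out, positive without control replicate 1), Slc25a22 (0.026) and Slc25a3 (0.14) on the authors' scaled signal, Slc25a4 (0.10 with quantile normalization, 0.072 with normexp and quantile), and Slc25a13 (-0.83 to 0.22 with 1 array left out, at 0.22 without PGE2 replicate 1 and 0.21 without control replicate 2). The cause was not tested. Normexp was run on the median signal, chosen after seeing the data; the planned form on the mean signal was not run.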

Other observations

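Besides the named phosphate carrier probes, 2 probes whose annotation describes the phosphate carrier without the symbol of the gene differed by 0.032 ± 0.16 and 0.60 ± 0.18 (SE, n = 2 per group). Their adjusted p were 0.941 and 0.233 in limma, and neither was called. Slc25a43, a carrier of unsettled substrate, differed by -0.48 ± 0.24 at its brightest probe and was not called; a second probe was kept through the control arrays alone, so its difference is not given.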
